A study of Mus musculus with 8 samples.

Results

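Among the GATA2 binding sites of 3T3-L1 cells, 520 lay between genes but close to one and had no counterpart in C3H10T1/2 cells. They are the peaks of the 3T3-L1 list that shared not even 1 bp with a C3H10T1/2 peak, whose centre lay outside every protein-coding gene and at most 100 kb from the nearest gene boundary. Peaks in a pair of regions of chromosome 10 (107213417 to 107256721 and 117281251 to 117790202), where 3T3-L1 peaks are very dense, were left out, which removed 444 peaks. The 520 sites are 21.3% of the 2445 peaks of the list (95% exact Clopper-Pearson interval 19.7 to 22.9). With no region left out the same rule gave 782 sites.

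GATA2 was mapped by chromatin immunoprecipitation and sequencing (ChIP-seq) in 2 established mouse cell lines at passages 4 to 6, with no treatment or genetic change named in the labels. 3T3-L1 cells are preadipocytes, fibroblast-like cells set to become fat cells, and C3H10T1/2 cells are less committed fibroblasts that can still form fat, bone, cartilage or muscle. Each line had 2 GATA2 ChIP libraries and 2 input libraries without antibody, prepared from DNA pooled over separate immunoprecipitations, and 1 list of peak positions per line was analysed. The lists give no peak height and no depth, so whether a site missing from one list was unbound or too weak to be called cannot be told apart. Spread between cultures is not known either, because a line is represented by 1 list. The shares below carry 95% intervals that cover counting error over peaks only, and differences between classes of peaks were not tested.

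GATA2 is a zinc finger transcription factor that recognises short DNA words built on GATA. In blood it maintains stem and progenitor cells, and in fat tissue it is made by preadipocytes and holds them back from maturing. Like other GATA factors it is known to act mostly from distal elements, which can lie far from the gene they control, so the nearest gene of a site is a position and not a proven target.

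Of the 520 sites, 7 reached into a promoter window, defined as the 250 bases before and 50 bases after a gene start in the RefSeq table of GRCm38.p6 (mm10). For 6 of them the bases of the peak inside the window are shown, because they are the sites at gene starts, where the letters under a peak can be read. Each is written 5′ to 3′ on the strand of the gene, with capitals marking the words AGATAA and, as variants of it, TGATAA and then AGATAG and then TGATAG, on either strand and with overlaps allowed. Svep1 is shown from chr4:58206681-58206845 (minus strand), Frk from chr10:34483231-34483394 (plus), Il31ra from chr13:112580774-112580912 (minus), Maoa from chrX:16619590-16619719 (plus), the non-coding gene 4930573C15Rik from chr5:146703763-146703886 (plus) and Hsd17b11 from chr5:104021982-104022046 (minus).
Svep1: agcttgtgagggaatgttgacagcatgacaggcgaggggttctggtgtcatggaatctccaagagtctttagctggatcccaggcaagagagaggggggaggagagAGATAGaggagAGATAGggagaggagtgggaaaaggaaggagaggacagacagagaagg
Frk: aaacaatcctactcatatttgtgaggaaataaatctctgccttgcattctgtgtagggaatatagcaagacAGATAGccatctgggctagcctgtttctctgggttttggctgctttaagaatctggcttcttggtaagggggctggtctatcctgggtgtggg
Il31ra: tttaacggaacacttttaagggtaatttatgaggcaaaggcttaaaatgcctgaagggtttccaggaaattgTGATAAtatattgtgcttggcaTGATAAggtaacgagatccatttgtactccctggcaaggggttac
Maoa: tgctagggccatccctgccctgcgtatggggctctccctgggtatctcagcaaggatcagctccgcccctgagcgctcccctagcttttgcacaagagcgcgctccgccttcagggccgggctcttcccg
4930573C15Rik: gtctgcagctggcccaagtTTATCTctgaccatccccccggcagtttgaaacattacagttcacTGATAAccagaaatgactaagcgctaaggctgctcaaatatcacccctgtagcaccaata
Hsd17b11: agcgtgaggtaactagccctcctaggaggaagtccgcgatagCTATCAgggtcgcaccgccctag

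One of the 4 words was present in 5 of the 7 stretches (71.4%, interval 29.0 to 96.3). Over all 32585 promoter windows of the table, each 300 bases long, 29.6% held one. At the Il31ra start the peak held TGATAA at 2 places, and at 4930573C15Rik it held AGATAA and TGATAA. The Svep1 stretch held AGATAG at 2 places inside a run rich in A and G, and Frk and Hsd17b11 each held 1 word, AGATAG and TGATAG. Windows cut at the same place relative to the gene start held a word in 20.2% of cases for the Svep1 stretch. This share was 17.7% for Frk, 17.5% for Il31ra, 13.2% for Maoa, 11.7% for 4930573C15Rik and 8.81% for Hsd17b11. The Maoa stretch, with 66.2% G and C bases, held none. With AGATAA and TGATAA alone, 2 of the 7 stretches had a match. Among C3H10T1/2-only intergenic sites near genes chosen by the same rule, 10 of 342 reached a promoter window and 4 of those held a word. Among the 196 shared intergenic sites near genes it was 16, of which 8 held one. Of 549 3T3-L1-only sites inside genes, 5 reached a promoter window and 4 of those held a word.

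Of these 7 promoter sites, 6 were among the 10 sites that lay nearest to a protein-coding gene. The closest centre was 43.5 bp from Maoa, which encodes monoamine oxidase A. Its peak (chromosome X, 16619590 to 16619719) ran across the gene start. Next came Frk, a Src family kinase gene, at 87.5 bp, then Il31ra, a subunit of the interleukin 31 receptor, at 142 bp. Svep1, which encodes a large matrix protein, followed at 167 bp, Svbp, which encodes the small partner of the vasohibins, at 252 bp, and Hsd17b11, a lipid droplet enzyme gene, at 255.5 bp. Sites at Brms1l, the complement gene C2 and the kinase gene Nlk lay 289.5 to 424.5 bp away. Of these 10 sites, the 8 whose gene has a strand in the table were all upstream of it. The 4930573C15Rik site is not among the 10, since its nearest protein-coding gene, Usp12, was 31.0 kb away. The Frk site had a C3H10T1/2 peak 2.77 kb away, whereas the nearest one to the Maoa site was 5885 kb away.

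Sites this close to a gene were few. Only 17 of the 520 (3.27%, interval 1.92 to 5.18) lay within 1 kb of a boundary and 127 (24.4%, 20.8 to 28.4) within 10 kb. The median distance was 28.2 kb (24.4 to 31.4), with a range of 43.5 bp to 99.1 kb. Of the intergenic sequence that the rule admits, 4.20% lies within 1 kb of a gene and 30.0% within 10 kb. C3H10T1/2-only intergenic sites had 6.73% (4.31 to 9.92) within 1 kb, and shared intergenic sites 12.2% (8.01 to 17.7). From 25 to 50 kb lay 26.2% of the 520 sites, 26.9% of the C3H10T1/2-only sites and 25% of the shared sites. When genes of every kind were used in place of protein-coding genes, the median distance was 15.4 kb and 36.7% of sites lay within 10 kb.

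**Figure D1:**
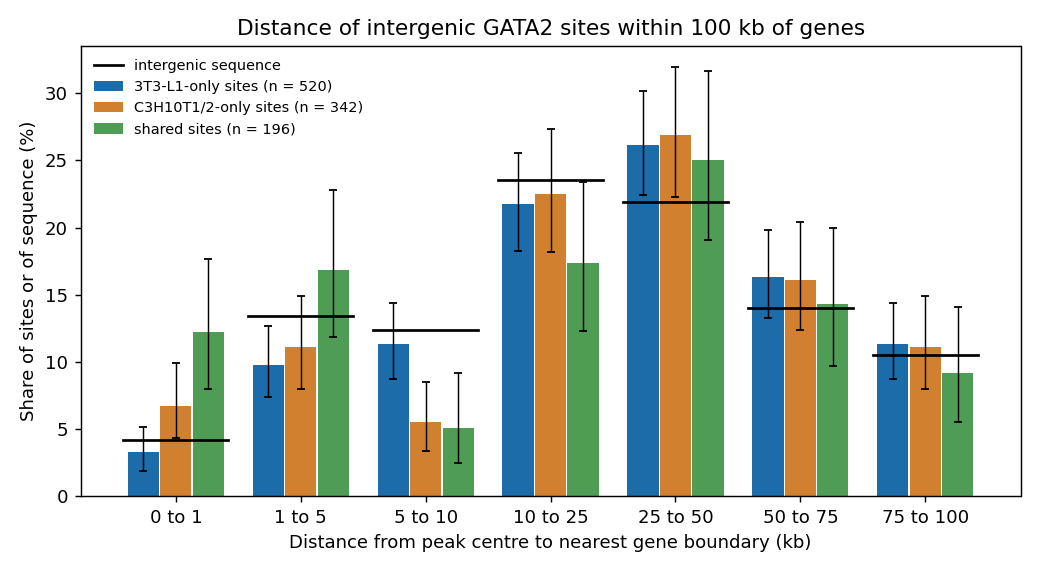
Share of sites (vertical axis, %) by distance from the peak centre to the nearest gene boundary (horizontal axis, kb) for 520 3T3-L1-only, 342 C3H10T1/2-only and 196 shared intergenic sites, with 95% exact binomial intervals. Black lines give the share of the admitted intergenic sequence. In the first bin the 3T3-L1-only bar stands at 3.27% and the shared bar at 12.2%, against 4.20% of the sequence.

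At the limit of 100 kb the farthest sites admitted lay at Zfhx4 (98.4 kb), Tent5a, Gm815, Ppp3ca and Opa1 (99.1 kb). The first ones outside lay at Asap1 (100.2 kb), Spcs3, Bod1, Fshb and Sstr4 (102.3 kb). On the gene side, the unshared 3T3-L1 peaks just inside a gene had centres 23 bp within Fbl, 122.5 bp within Tmem200a and 177 bp within Ppm1k.

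The table gave a strand for the nearest gene of 401 of the 520 sites, and 230 of these (57.4%, 52.4 to 62.3) were upstream of the gene. Of the admitted intergenic sequence 53.7% is upstream of its nearest gene. The side varied with distance. Within 1 kb, 12 of 14 sites were upstream, whereas from 1 to 10 kb it was 37 of 89 (41.6%, 31.2 to 52.5), with 52 beyond the 3′ end. Both windows together gave 49 of 103 (47.6%, 37.6 to 57.6). From 10 to 50 kb, 126 of 201 were upstream (62.7%, 55.6 to 69.4), and from 50 to 100 kb 55 of 97 (56.7%, 46.3 to 66.7). C3H10T1/2-only sites were upstream in 30 of 47 cases from 1 to 10 kb (63.8%, 48.5 to 77.3) and in 44 of 63 within 10 kb (69.8%, 57.0 to 80.8). Shared sites within 10 kb were upstream in 34 of 52 (65.4%, 50.9 to 78.0). In other windows these classes were closer to the 520 sites. Within 1 kb, C3H10T1/2-only and shared sites were each upstream in 14 of 16 cases. From 10 to 50 kb it was 77 of 124 C3H10T1/2-only sites (62.1%, 52.9 to 70.7) and 39 of 71 shared sites (54.9%, 42.7 to 66.8).

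**Figure D2:**
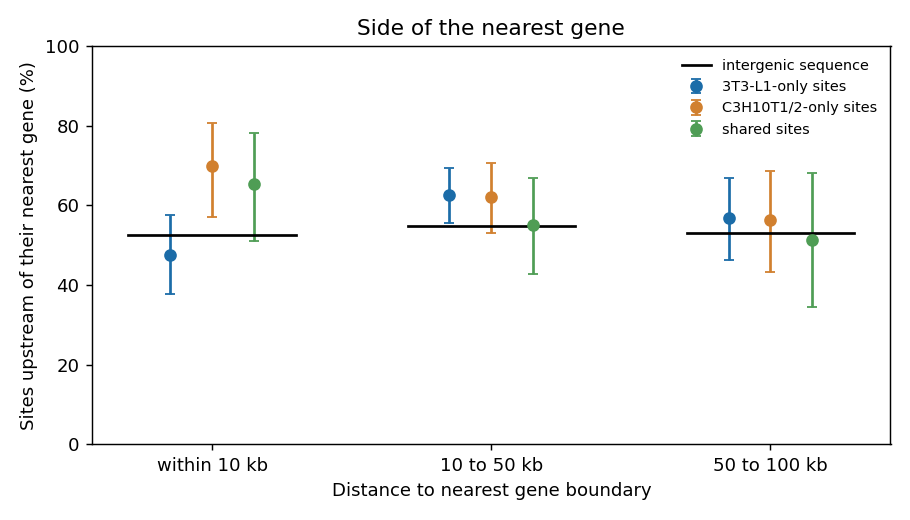
Share of sites upstream of their nearest gene (vertical axis, %) in 3 windows of distance to its boundary (horizontal axis), as points with 95% exact binomial intervals for 3T3-L1-only, C3H10T1/2-only and shared intergenic sites. Black lines give the same share of the intergenic sequence. Within 10 kb the 3T3-L1-only point is at 47.6% and the C3H10T1/2-only point at 69.8%.

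The stretch between the flanking genes was 154 kb long at the median site (132.8 to 172.4), with a range of 3.21 to 3989 kb. Weighted by the admitted sequence, the median stretch was 131 kb. Both flanking genes were within 100 kb of the site in 244 cases (46.9%), so a single nearest gene is often one of a pair. Where both strands were known, 177 of 338 sites lay between genes running the same way, 109 between genes whose starts face each other and 52 between genes whose ends do.

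The sites were narrow. Their median width was 138 bp (130 to 145) with a range of 50 to 489 bp. Unshared 3T3-L1 peaks inside genes had a median of 132 bp (127 to 139), those over 100 kb from a gene 137 bp (131 to 147), and shared intergenic 3T3-L1 peaks near genes 179 bp (168 to 197). C3H10T1/2-only intergenic sites near genes had a median of 179 bp (171 to 186). A wider peak can overlap another list more easily, and the part of this choice in the widths was not tested. With sharing defined by centres within 1 kb, the median width of the 3T3-L1-only sites was again 138 bp. Of the 520 sites, 85 (16.3%) were narrower than 95 bp, the narrowest peak of the C3H10T1/2 list. Over all 2445 peaks of the 3T3-L1 list it was 413 (16.9%, 15.4 to 18.4), nearly the same share, and their median width was 144 bp. The widths were 132 bp at the median within 10 kb of a gene, 144 bp from 10 to 50 kb and 130 bp beyond.

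The 10 widest sites were 368 to 489 bp across. The widest lay 28.9 kb from Enpp2 (chromosome 15, 54809710 to 54810198), which encodes autotaxin, the enzyme that makes lysophosphatidic acid and is released by fat cells. The next, 464 bp wide, lay 8.75 kb upstream of Ptn (chromosome 6, 36818701 to 36819164), which encodes the heparin-binding growth factor pleiotrophin. A site of 448 bp lay 11.0 kb beyond the protocadherin gene Pcdh7, and one of 434 bp lay 35.3 kb from Cdh11, the cadherin of mesenchymal cells. The others were at Dlg2, Vmn1r21, Col6a2, Csrp2, Clec2d and Mmd. Only the Clec2d site, 385 bp wide, had a C3H10T1/2 peak within 10 kb, at 0.926 kb.

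Most sites had no peak of the C3H10T1/2 list in their neighbourhood. A C3H10T1/2 peak lay within 100 kb of 130 of the 520 sites (25%, 21.3 to 29.0), within 10 kb of 24 and within 1 kb of 7. The median distance to one was 389 kb (333 to 456). For unshared 3T3-L1 peaks inside genes the share within 100 kb was 23.0% (19.5 to 26.7), and for those far from genes it was 25.5% (21.2 to 30.2). With no region left out it was 16.6% of 782 sites. The 5 sites closest to a C3H10T1/2 peak were separated from it by 34 bp at Ly6c2, 82 bp at Cxcl15, 228 bp at Gas1, 271 bp at Fstl1 and 342 bp at Cdkn2aipnl. Gas1 encodes a membrane protein linked to growth arrest and Hedgehog signalling, and Fstl1 a secreted glycoprotein of the follistatin family that preadipocytes make. At Gas1 the 3T3-L1 site covered bases 60225878 to 60226095 of chromosome 13, and bases 60226324 to 60226825 were called in C3H10T1/2. Counting such cases by peak centres within 1 kb in place of overlap left 514 sites.

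The sites were spread over chromosomes 1 to 19 and X, at 6.22 per 10 Mb of admitted sequence. Chromosome 2 had the most, with 63 sites (10.8 per 10 Mb), followed in density by chromosomes 19 (9.08) and 3 (9.05). The lowest densities were on chromosomes X (2.83), 12 (3.00) and 7 (3.02). The C3H10T1/2-only sites were distributed otherwise. Chromosome 1 had 20 sites of 3T3-L1 alone and 39 of C3H10T1/2 alone, chromosome 12 had 10 and 19, chromosome 2 had 63 and 27, and chromosome X had 19 and 3. Over all chromosomes there were 1.52 sites of 3T3-L1 alone per site of C3H10T1/2 alone.

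The same ratio can be taken from unshared peaks that the rule did not use, those inside genes or far from them (933 of 3T3-L1 and 675 of C3H10T1/2, a ratio of 1.38). It was 6.80 on chromosome X, 1.02 on chromosome 1, 1.07 on chromosome 12, 1.60 on chromosome 2 and 2.73 on chromosome 5, where the intergenic sites had 2.92. Chromosome 16 went the other way, with 1.62 among the intergenic sites and 0.561 among the others. Across the 20 chromosomes the log2 ratios of both sets had a Pearson r of 0.74 and a Spearman rho of 0.74. This is a description only, since the chromosomes share the same lists, libraries and depth. The number of copies of each chromosome in either line was not measured here, and its part in the ratios was not tested.

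**Figure D3:**
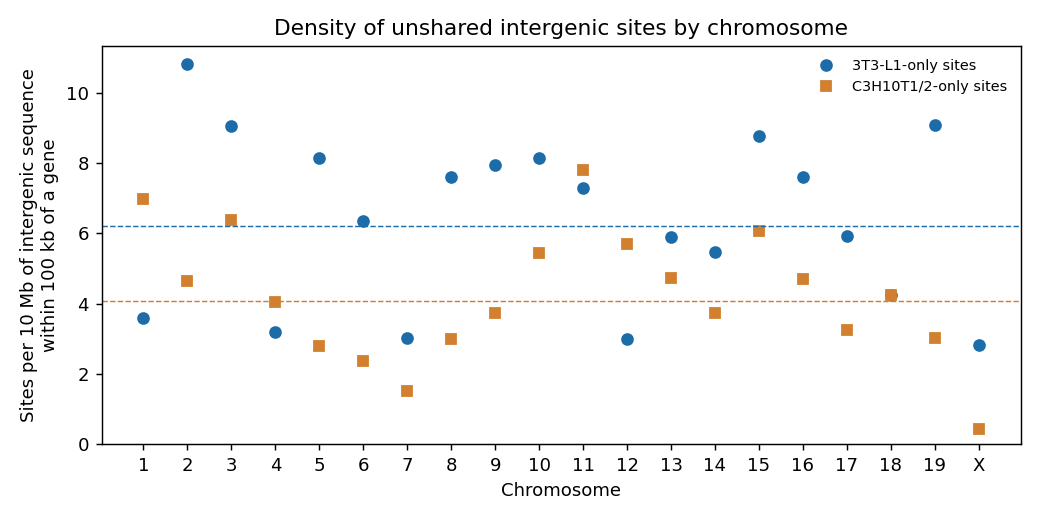
Number of unshared intergenic sites near genes per 10 Mb of admitted intergenic sequence (vertical axis) on each chromosome (horizontal axis), for 3T3-L1-only sites (circles) and C3H10T1/2-only sites (squares), with dashed lines at the values over all chromosomes. Circles are above squares on most chromosomes, below them on chromosomes 1, 4, 11 and 12, and hidden by the square on chromosome 18, where both are 4.26.

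Most sites stood alone. Of the 520, 109 (21.0%, 17.5 to 24.7) had another of them within 50 kb, in 49 groups, of which 40 were pairs, 7 had 3 sites and 2 had 4. C3H10T1/2-only sites had nearly the same share, 19.6% (15.5 to 24.2). With no region left out it was 47.4% of 782 sites.

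The groups of 4 were both on chromosome 2. One ran over 8.65 kb beyond the 3′ end of the splicing factor gene Cwc22 (77871054 to 77879701), 1.51 to 10.1 kb from the gene. A group of 3 lay on its other side, 60.6 to 80.5 kb upstream (78006880 to 78026980), so that 7 sites had Cwc22 as nearest gene, more than any other gene. The nearest C3H10T1/2 peak to any of the 7 was 1539 kb away. The 7 sites are part of a larger set, since 13 peaks of the 3T3-L1 list lay within 100 kb of Cwc22 when peaks inside genes are counted too. The other group of 4 ran over 56.9 kb (148371935 to 148428794) along Sstr4, a somatostatin receptor gene, Thbd, which encodes the anticoagulant receptor thrombomodulin, and Cd93, which encodes a lectin-like receptor of endothelial cells. Its nearest C3H10T1/2 peak lay 8.79 kb from the first of the sites.

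Groups of 3 lay near further genes. At Tmem26, a gene used as a marker of beige fat cells, 3 sites stood within 2.21 kb of each other (chromosome 10, 68705542 to 68707756), 16.1 to 18.1 kb upstream of the gene. Another group lay between the lectin-like receptor genes Clec2d and Cd69 on chromosome 6. One lay 41.0 to 68.0 kb upstream of 1810046K07Rik on chromosome 9. The 3 sites nearest to the chemokine gene Cxcl15 stood 4.98, 38.5 and 39.6 kb beyond it on chromosome 5, where the C3H10T1/2 list also has several peaks. The 3 sites below Col12a1, which encodes a collagen that decorates fibrils, lay 47.2, 49.5 and 96.7 kb from it. Single sites at Adh7, Adh1 and Adh6a made up a group over 57.6 kb of the alcohol dehydrogenase cluster on chromosome 3, and the nearest C3H10T1/2 peak was 439 kb away. Besides Cwc22, the genes with the most sites within 100 kb were Cd93 (6), Mthfd2l (5), and Cxcl1, Cxcl2, Hectd2, Sstr4, Thbd, Tmem26 and Zfp385b (4 each).

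In all, 1153 of the 21631 protein-coding genes (5.33%) had at least 1 of the 520 sites within 100 kb, and 456 (2.11%) were the nearest gene of one. Of these 456 genes, 404 had 1 site, 45 had 2 and 7 had more. A C3H10T1/2 peak of any kind lay within 100 kb of 123 of the 456 (27.0%, 23.0 to 31.3), against 12.1% of all genes. Genes nearest to a site of each line alone numbered 40, which is 8.77% of the 456 genes and 13.4% of the 299 genes nearest to a C3H10T1/2-only site. Described by 17 gene lists of 552 genes, 75 list genes (13.6%) had a site within 100 kb and 49 (8.88%) were the nearest gene. Gene lists were read against the 5.33% and 2.11% of all genes. No list was tested, and genes with long empty surroundings can more easily be nearest to a site.

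**Figure D4:**
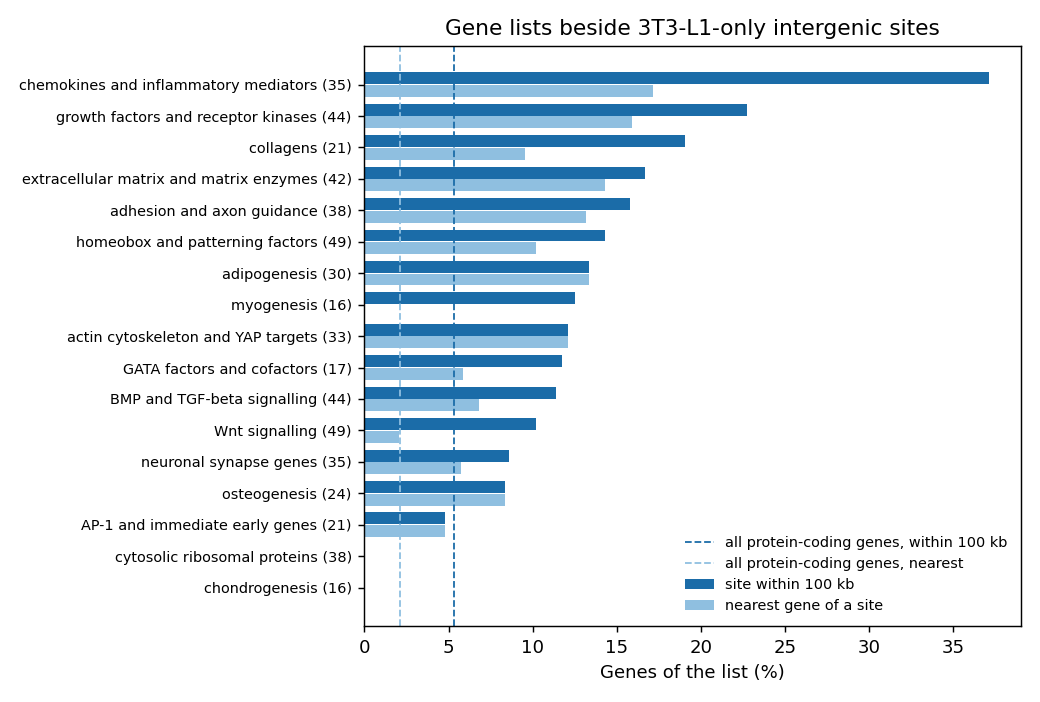
Share of the genes of each list (horizontal axis, %) with a 3T3-L1-only intergenic site within 100 kb (dark bars) or as nearest gene of a site (light bars), with the number of genes of the list in brackets. Dashed lines give all protein-coding genes, at 5.33% and 2.11%. The chemokine list has the longest dark bar at 37.1%, and the lists of cartilage and ribosomal protein genes have none.

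Fat cell genes had 4 of 30 members with a site within 100 kb (13.3%), and in each case the gene was also the nearest one. Pparg, the nuclear receptor gene that drives fat cell formation, had a site 10.6 kb upstream (chromosome 6, 115350184 to 115350313), with a C3H10T1/2 peak 33.1 kb from that site. Cebpa, the partner factor of Pparg, had a site of 82 bp at 2.41 kb beyond its 3′ end (chromosome 7, 35124298 to 35124379). The nearest C3H10T1/2 peak to it was 804 kb away. Rxra, which encodes the dimer partner of the Pparg protein, had a site 30.4 kb downstream (chromosome 2, 27793608 to 27793766), and a C3H10T1/2 peak lay 29.0 kb from it. Lpl, which encodes the lipase that frees fatty acids for uptake, had one 47.3 kb away (chromosome 8, 68954152 to 68954248).

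Lists of the other mesenchymal lineages differed in their shares. Bone genes had 2 of 24 (8.33%), both also as nearest gene. These were Tnfsf11, which encodes RANKL, the signal for osteoclast formation, with a site 32.5 kb downstream, and the growth factor receptor gene Fgfr2, with a site 32.6 kb downstream. Cartilage genes had 0 of 16, which allows a share of up to 18.8%, the share that 3 genes would make. Muscle genes had 2 of 16 (12.5%), close to the share of the fat cell list. They were the neighbours Myf5 and Myf6, which had the same site within 100 kb, and neither was its nearest gene.

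Chemokines and inflammatory mediators had the highest share, 13 of 35 (37.1%), but these genes are clustered and the 13 rested on 9 sites. By nearest gene it was 6 of 35 (17.1%). Ptgs2 and Ptges, which encode the cyclooxygenase and the synthase that make prostaglandin E2, both had a site. That of Ptgs2 lay 14.2 kb upstream (chromosome 1, 150085734 to 150085863) and that of Ptges 3.78 kb downstream (chromosome 2, 30885659 to 30885729). Their nearest C3H10T1/2 peaks were 3613 kb and 290 kb away. Lif, a cytokine gene of the interleukin 6 family, had a site 25.5 kb downstream. Ccl11, the eotaxin gene, had one 15.7 kb away in the Ccl cluster of chromosome 11, which also reached Ccl2, Ccl7 and Ccl8. Cxcl2 had one 2.42 kb downstream in the Cxcl cluster of chromosome 5.

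Growth factors and receptor kinases followed with 10 of 44 (22.7%), over 12 sites, and 7 of them were the nearest gene (15.9%). All 7 encode ligands, but the receptor genes Fgfr2 and Acvr2a, also nearest to sites, were counted on other lists. Fgf10, a mesenchymal factor that supports fat and limb development, had sites on both sides, 22.7 kb upstream (chromosome 13, 118691971 to 118692057) and 58.4 kb downstream. Igf1, the insulin-like growth factor gene, had one 32.9 kb upstream (chromosome 10, 87825311 to 87825468). Hgf, which encodes the ligand of the Met receptor, had one 34.8 kb downstream (chromosome 5, 16654155 to 16654350), 45.0 kb from a C3H10T1/2 peak. Pdgfc had one 19.5 kb downstream and the lymphatic growth factor gene Vegfc one 83.9 kb downstream. The site at Nrg1 was 57.4 kb away.

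Adhesion and guidance genes had 6 of 38 within 100 kb (15.8%) and 5 as nearest gene, with 8 sites between them. Semaphorins and Slit proteins are secreted cues that steer growing axons and vessels. Sema3a had sites 2.68 kb and 83.5 kb upstream, the nearer one 270 bp wide (chromosome 5, 13122006 to 13122275). Sema3e had a pair 32.3 and 42.3 kb upstream. Slit2 had a site 69.0 kb upstream, and Slit3 one 10.6 kb beyond its 3′ end (chromosome 11, 35718988 to 35719257). Cdh11 had a site on each side, at 35.3 and 91.2 kb, with a C3H10T1/2 peak 35.2 kb from the farther one.

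Matrix genes outside the collagens had 7 of 42 within 100 kb (16.7%) and 6 as nearest gene. Sparc, which encodes the collagen-binding protein osteonectin, had a site 10.3 kb downstream (chromosome 11, 55383787 to 55383924). Lama2, a laminin chain gene, had one 46.5 kb upstream. Those at the thrombospondin genes Thbs1 and Thbs2 were 72.5 and 95.1 kb away. Sites at the proteoglycan gene Dcn (74.9 kb) and the aggrecanase gene Adamts5 (46.3 kb) had C3H10T1/2 peaks at 7.04 and 52.2 kb. Among the 21 listed collagen genes 4 had a site within 100 kb, and Col6a2 had one of the widest, 398 bp, 41.5 kb upstream (chromosome 10, 76664887 to 76665284). Col6a5 and Col6a4, which are not on this list, were nearest to sites at 11.0 and 16.0 kb.

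Actin and YAP target genes had 4 of 33 (12.1%), each as nearest gene. Tpm4, a tropomyosin gene, had a site 2.22 kb upstream (chromosome 8, 72133006 to 72133138) and its nearest C3H10T1/2 peak was 1459 kb away. The sites of Tpm1 and of the YAP target gene Ccn1, 39.7 and 28.0 kb upstream, had C3H10T1/2 peaks at 13.4 and 6.84 kb. Amotl2 had one 21.9 kb downstream.

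Of the signalling lists, BMP and TGF-beta genes had 5 of 44 within 100 kb (11.4%) and 3 as nearest gene (6.82%). Acvr2a, an activin receptor gene, had a pair of sites 79.2 and 80.0 kb upstream (chromosome 2, 48734033 to 48734134 and 48734826 to 48735034). Fstl1 had a pair 36.8 and 44.9 kb upstream, and Ltbp1, whose product holds latent TGF-beta in the matrix, had one 13.8 kb downstream. Wnt genes had 5 of 49 within 100 kb (10.2%), but only Sfrp2, a secreted Wnt antagonist, was the nearest gene of a site (2.04%, against 2.11% of all genes). That site lay 10.1 kb upstream (chromosome 3, 83755514 to 83755700).

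Lists of transcription factor genes ranged from 4.76% to 14.3% within 100 kb. Patterning factors had 7 of 49 (14.3%) and 5 as nearest gene (10.2%), all more than 65 kb away, among them 65.8 kb from Irx1, 75.02 kb from Nfia, 93.9 kb from Osr1 and 98.4 kb from Zfhx4. Of 17 GATA factor and cofactor genes, Gata3, which like Gata2 restrains preadipocytes, had a site 9.68 kb beyond its 3′ end (chromosome 2, 9847316 to 9847489), and Gata5 had one within 100 kb. The nearest C3H10T1/2 peak to the Gata3 site was 2046 kb away. Klf6, with a site 67.1 kb downstream, was the only one of 21 AP-1 and immediate early genes (4.76%).

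Of the lists taken as controls, that of cytosolic ribosomal protein genes had 0 of 38, which allows a share of up to 7.89%. It does not hold every such gene. Rps21 and Rps12, which are not on it, were each the nearest gene of a site, at 8.20 and 73.2 kb. Neuronal synapse genes had 3 of 35 (8.57%), with Snap25 (43.2 kb) and Dlg2 (36.9 kb) as nearest genes (5.71%), so this control list too was above the 5.33% and 2.11% of all genes.

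C3H10T1/2-only intergenic sites, which are fewer, lay within 100 kb of 3.82% of all genes, and several lists had a like number of genes near them. Their counts within 100 kb were 6 of 42 for matrix genes against 7 for the 520 sites, 5 of 44 against 5 for BMP and TGF-beta genes, 4 of 33 against 4 for actin and YAP target genes and 3 of 35 against 3 for synapse genes. Fat cell genes had 2 against 4, muscle genes 2 against 2, collagen genes 3 against 4 and Wnt genes 3 against 5. Bone genes had 4 against 2, cartilage genes 2 against 0, AP-1 and immediate early genes 2 against 1 and ribosomal protein genes 1 against 0. The remaining counts were those of chemokines and inflammatory mediators (5 against 13), growth factors and receptor kinases (3 against 10), adhesion and guidance genes (2 against 6), patterning factors (3 against 7) and GATA factors and cofactors (0 against 2). None of these differences was tested.

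**Figure D5:**
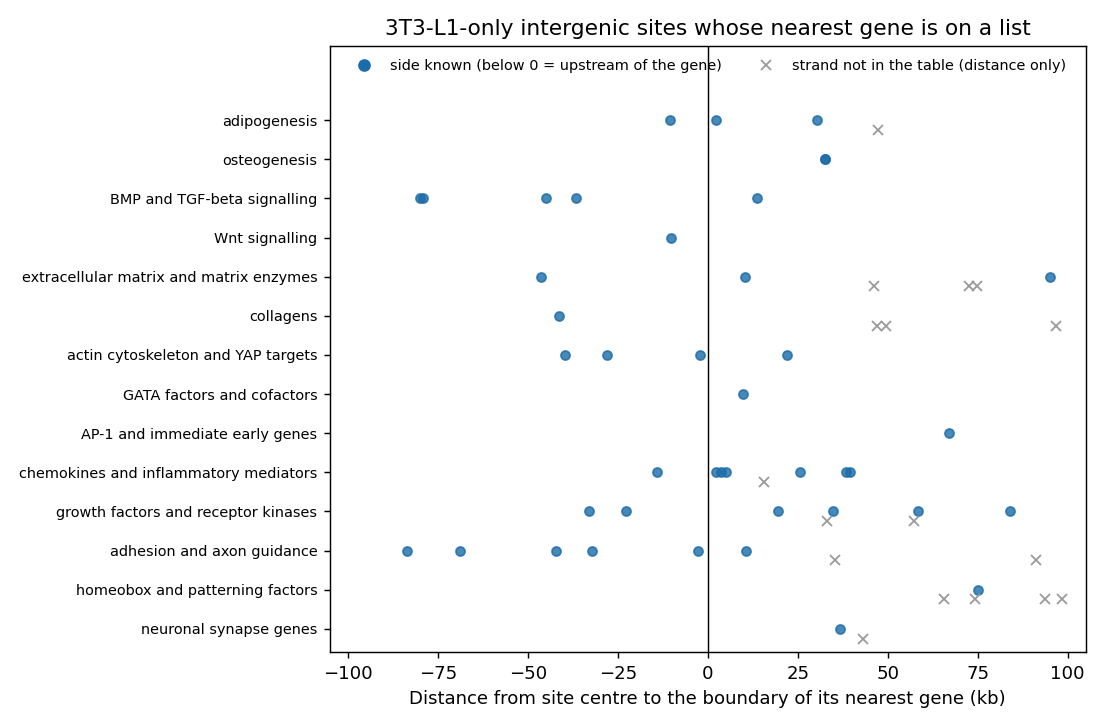
Distance in kb from each site to the boundary of its nearest gene (horizontal axis, negative values upstream of the gene) for the sites whose nearest gene is on a list (rows). Crosses are sites whose gene has no strand in the table and show distance alone. Sites of the listed patterning factors all lie beyond 65 kb, while those of the listed chemokine and inflammatory genes lie within 40 kb.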

How the data were processed

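Positions were read from the 2 deposited peak lists, which the authors made on mm10 with CASAVA 1.8, Bowtie2, SAMtools, bedtools and MACS2, per the submitters' processing notes. Thresholds, use of input and treatment of replicates are not given in the sources used here, and the depth is unknown. Positions are printed counted from 1. Genes were 21631 protein-coding genes of RefSeq GRCm38.p6 on chromosomes 1 to 19 and X. Strand came from the promoter table, which covered 17274 of them. A distance runs from the peak centre to the nearer gene boundary. The admitted sequence is all sequence outside genes and within 100 kb of one, measured from the gene table (837 Mb).

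The sites and gene lists were chosen with earlier results of these data known, so no list was tested. The 17 lists matched all 552 symbols, but a list does not hold every gene of its kind. Genes and sites were named by fixed rules: nearest, widest, most sites, groups of 3 or more, those at the limits, those closest to C3H10T1/2 peaks, list genes nearest to a site, and sites reaching a promoter window. Intervals are 95% Clopper-Pearson for shares and order-statistic for medians. The share that a count of 0 allows is not such an interval but the share that a count of 3 would give. The code was checked on simulated peaks. Python 3.11.15, numpy 2.4.6, pandas 2.3.3 and scipy 1.17.1 were used. A few sites that these rules name, and 1 sequence, are counted but not reported here.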

Additional observations from a re-analysis of the deposited data

How the results depend on the processing

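The values rest on 1 list per line, so no library could be left out in turn. No paired analysis was possible because the lists are not given per replicate. With overlap defined as 50% of both peaks or as centres within 1 kb, all results stayed within the interval or within 1.5 times the count. Leaving out every run of 8 or more peaks with gaps of at most 20 kb removed none of the 520 sites, so it says nothing about stability. Peaks of at least the median width of their list gave 279 sites with a median width of 185 bp, 14.3% with another site within 50 kb, 17.6% with a C3H10T1/2 peak within 100 kb, 625 genes with a site within 100 kb, 257 nearest genes and a GATA word in 100% of 3 promoter stretches. With no region left out there were 782 sites, of which 69.7% were upstream of their nearest gene, 47.4% had another site within 50 kb and 16.6% had a C3H10T1/2 peak within 100 kb. A limit of 50 kb gave 33.8% of sites within 10 kb and a median distance of 16.8 kb, both set by the limit itself. Genes of every kind gave 36.7%, 15.4 kb and 2376 genes with a site within 100 kb, since 49554 genes were then used. Sites more than 5 kb from genes gave 13.1%, 33.8 kb and a word in 100% of 1 stretch. AGATAA and TGATAA alone were in 28.6% of the stretches. The moves to 185 bp, to 782 sites, to 13.1% and 33.8 kb and to 28.6% were in the direction that their settings impose. So were both moves under the limit of 50 kb. For the remaining moves the cause was not tested. The low number of 7 stretches limits any reading of the words.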

Other observations

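Some of the sites outside protein-coding genes lay inside genes of other kinds. Of the 520, 85 (16.3%, 13.3 to 19.8) had their centre inside a non-coding gene or pseudogene, 79 of them in a long non-coding RNA gene, while such genes cover 15.1% of the admitted sequence. Examples, chosen after their values were seen, are named for the coding gene they lie beside. The Ptgs2 site was in Ptgs2os, a site 48.0 kb from the kidney and mesothelium factor gene Wt1 was in Wt1os (chromosome 2, 105078496 to 105078609), and a site 22.9 kb from the homeobox gene Emx2 was in Emx2os. A site 2.00 kb from Hes1, a Notch target gene, was in Gm32998 (chromosome 16, 30069737 to 30069853). The Lpl site was in Gm32997 and the Sparc site in Gm31842. A microRNA hairpin lay within 10 kb of 2 sites, Mir217 at 6.92 kb and Mir3091 at 8.36 kb.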
